A study of Mus musculus with 15 samples.

Results

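The ErbB receptors Egfr, Erbb2, Erbb3 and Erbb4 were followed across dysplastic and unaltered mouse lung. So were Errfi1, Lrig1 and Lrig3, grouped here as their feedback inhibitors. Every probe set that the array annotation assigns to 1 of these 7 genes alone was taken, which gave 19 of 45037 probe sets on the arrays, for 7 of 18032 genes that have a probe set of their own. Of these probe sets, 11 belong to the receptors and 8 to the inhibitors. A probe set is a group of short probes on the array that together report a transcript. Egfr had 7 probe sets, Erbb2 and Erbb4 had 1 each, Erbb3 and Errfi1 had 2 each, and Lrig1 and Lrig3 had 3 each. Their mean signal over the 15 arrays was above 100 for 10 of them, which were tested. The other 9, with means from 4.51 to 99.2, were not, and among them was the only probe set of Erbb4.

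The samples came from SP-C/c-raf mice, in which the promoter of surfactant protein C drives c-raf in the respiratory epithelium, bred on a C57BL/6 background, and from their non-transgenic littermates. Tissue was laser-microdissected from frozen sections, pooled from areas of the same lung, and hybridised to Affymetrix mouse genome arrays. The 5 dysplasia samples and the 5 samples of transgenic but unaltered tissue were taken from transgenic mice aged 5 to 7 months, both kinds of tissue from the same animals. The 5 samples of non-transgenic tissue came from mice aged 7 to 10 months, so that age and genotype cannot be told apart in comparisons with them. Sex was uneven between the groups as well. The comparisons asked which transcripts differed between dysplasia and unaltered transgenic tissue, between dysplasia and non-transgenic lung, and between the transgenic and non-transgenic tissue without dysplasia.

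ErbB receptors are tyrosine kinases of epithelial and other cells that pair after binding ligands of the EGF family and signal through Ras, Raf and the MAP kinases as well as through PI3 kinase. Erbb2 has no known soluble ligand and acts as a preferred partner, whereas Erbb3 has a weak kinase and couples its partners to PI3 kinase. Signalling through these receptors induces its own inhibitors. Errfi1, also called Mig-6, is an immediate early gene whose product binds and blocks the active kinase domain, and Lrig1 is a membrane protein that directs ErbB receptors towards ubiquitylation and degradation. Lrig3 is grouped with the inhibitors as a relative of Lrig1, and its own effect on the receptors was not tested. In the lung these receptors take part in branching, repair of the epithelium and adenocarcinoma.

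Promoter windows of 300 bases, from 250 before to 50 after the transcription start, were read from the RefSeq mouse annotation (build GRCm38.p6) for 6 of the 7 genes. They are shown for a gene whose signal was higher and a gene whose signal was lower in dysplasia among the receptors, and for such a pair among the inhibitors. Capitals mark the motifs found, which were searched by their letters on either strand and do not overlap in the windows shown. AP-2 was searched as GCCNNNGGC. The GC box was searched as GGGCGG. The AP-1 site was searched with the letters TGANTCA. The CCAAT box was searched by its name, and an Ets site as CCGGAAGT. The last motif was a TATA box, with the letters TATAAA. The windows lie at chr11:98412234-98412533 (plus strand) for Erbb2, chr11:16751953-16752252 (plus strand) for Egfr, chr6:94700096-94700395 (minus strand) for Lrig1 and chr10:125965969-125966268 (plus strand) for Lrig3.
Erbb2: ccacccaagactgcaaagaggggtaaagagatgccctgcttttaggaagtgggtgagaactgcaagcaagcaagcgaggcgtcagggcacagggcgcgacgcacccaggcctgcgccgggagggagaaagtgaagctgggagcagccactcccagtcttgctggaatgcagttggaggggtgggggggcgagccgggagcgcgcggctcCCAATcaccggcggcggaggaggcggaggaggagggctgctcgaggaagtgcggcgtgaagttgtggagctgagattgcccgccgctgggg
Egfr: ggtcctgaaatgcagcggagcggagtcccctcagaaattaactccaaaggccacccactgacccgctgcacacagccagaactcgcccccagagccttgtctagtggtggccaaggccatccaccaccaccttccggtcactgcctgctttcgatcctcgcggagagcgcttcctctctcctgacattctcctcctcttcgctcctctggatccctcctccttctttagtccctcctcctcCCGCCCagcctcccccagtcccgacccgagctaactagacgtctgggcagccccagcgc
Lrig1: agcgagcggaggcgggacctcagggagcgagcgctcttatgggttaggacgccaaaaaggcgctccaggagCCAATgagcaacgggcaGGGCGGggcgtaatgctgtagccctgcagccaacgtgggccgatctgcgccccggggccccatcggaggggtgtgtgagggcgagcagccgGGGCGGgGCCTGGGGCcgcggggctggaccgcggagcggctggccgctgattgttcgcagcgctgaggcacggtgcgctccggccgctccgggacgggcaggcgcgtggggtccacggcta
Lrig3: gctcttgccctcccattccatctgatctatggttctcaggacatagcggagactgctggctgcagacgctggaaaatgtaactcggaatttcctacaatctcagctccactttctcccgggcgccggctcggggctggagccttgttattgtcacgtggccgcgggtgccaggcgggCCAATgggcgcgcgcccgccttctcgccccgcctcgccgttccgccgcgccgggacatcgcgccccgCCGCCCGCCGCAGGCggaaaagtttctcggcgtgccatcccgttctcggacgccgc
The Erbb2 window held a CCAAT box, and the Egfr window a GC box within 10 bases of the start. The Lrig1 window held 2 GC boxes, a CCAAT box and an AP-2 match, and that of Lrig3 a GC box, a CCAAT box and an AP-2 match. Of 32851 windows of the same length, 35.7% held a GC box, 37.4% a CCAAT box, 16.6% an AP-2 match, 7.81% an AP-1 match, 13.6% a TATA box and 3.89% an Ets site. Their GC content was 66% for Erbb2, 62.3% for Egfr, 73% for Lrig1 and 66.3% for Lrig3, against a median of 52.7% over all windows. No motif set the genes with higher signal apart from those with lower signal among these 4 windows, and a match is a description of letters only.

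The arrays were alike in brightness, with mean signals from 692 to 775 and 44.1% to 49.9% of the probe sets above a signal of 100. The 5' to 3' ratio of actin signal, which drops as RNA degrades, had medians of 57.1% for dysplasia, 38.9% for transgenic and 31.0% for non-transgenic arrays, with ranges of 25.1% to 75.2%, 12.5% to 63.4% and 14.1% to 72.8% that overlapped widely. In each group it was highest on array 2 and lowest on array 5. On the array dysplasia 4, Xist and Y-linked transcripts were both present. For transgenic 2 the title, which holds the word corrected, names unaltered tissue while another entry names tumor. Counts without these 2 arrays are given beside the main ones. Of 12 measured epithelial markers 11 could be tested, Nkx2-1 being too dim, and endothelial and mesenchymal markers were present in every group too.

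The tissue markers moved strongly with dysplasia. Of 11 tested epithelial markers 10 were higher in dysplasia than in transgenic tissue, with a median log2 difference of 1.41 (Krt18 2.14, Esrp1 1.52), and the summed signal of the 12 measured ones ran from 78835 to 95987 in dysplasia, from 36460 to 37869 in unaltered transgenic and from 26974 to 34380 in non-transgenic tissue. All 12 endothelial markers were lower, with a median of -1.71, and their sum ran from 18957 to 29449 in dysplasia, from 61432 to 84788 in unaltered transgenic and from 73696 to 93157 in non-transgenic tissue. Of 12 fibroblast and mesenchymal markers 4 were lower and 1 was higher, and their sum ran from 36376 to 47005 against 60121 to 71448 and 69652 to 73894. Alveolar type 2 markers gave 1 higher call among 8 tested, and alveolar type 1 markers 7 lower and 1 higher among 10. Against transgenic tissue the 3 tested ciliated markers were higher, as were 3 of 5 club markers, with 1 lower. Of 5 smooth muscle markers 4 were lower, of 7 lymphocyte markers 5, and of 9 macrophage markers 5, with 2 higher. The part of these cells in the differences of the receptors and inhibitors was not tested. None of the endothelial markers was at or near 0 on any array, those of dysplasia included. In tissue of mixed cells, fewer cells of a type and less RNA per cell cannot be told apart, and this holds for each difference below.

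At an adjusted p under 0.05 (limma, Benjamini-Hochberg over 21658 probe sets), 8 of the 10 tested probe sets differed between dysplasia and transgenic tissue, 4 higher and 4 lower. Over all probe sets tested, 33.2% were called in this comparison, 15.3% higher and 17.9% lower. Erbb2, Erbb3, Errfi1 and Lrig1 had a probe set that was higher, Egfr had 3 that were lower, and Lrig3 had 1 that was lower. The median log2 difference of the 10 was 0.46, against -0.01 over all probe sets. An adjusted p of at most 0.001 together with a ratio of at least 2 between the group means, in either direction, was reached by 5 of the 10 and by 8.42% of all probe sets. Dysplasia and transgenic arrays were fully separated at 7 of the 10, and at 25.3% of all. Without dysplasia 4 and transgenic 2, 7 probe sets were called, 3 higher and 4 lower, the loss being Errfi1. These p-values treat each array as an independent sample, although both tissues came from the same mice.

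**Figure D1:**
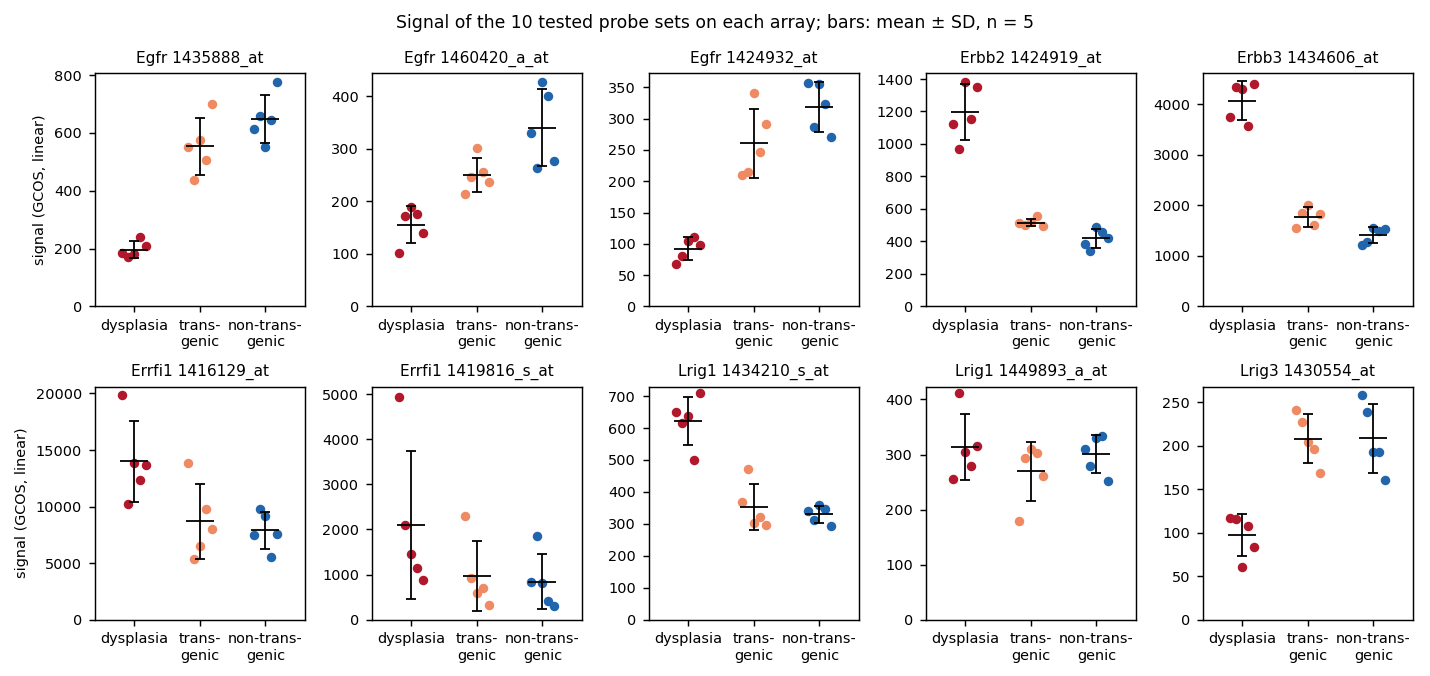
Signal of the 10 tested probe sets (linear scale from 0, in arbitrary units scaled to a target of 500 per array), with 1 point per array for 5 dysplasia, 5 transgenic and 5 non-transgenic samples and a bar for mean and SD. The dysplasia arrays lie above both other groups for Erbb2 and Erbb3 and below both for the 3 Egfr probe sets and Lrig3.

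Erbb3 was higher in dysplasia on every array. Its bright probe set, 1434606_at, had signals of 3746, 4345, 4287, 3572 and 4386 in dysplasia 1 to 5. The transgenic arrays gave 1541, 1843, 2011, 1606 and 1820, and the non-transgenic arrays 1209, 1267, 1559, 1485 and 1521. The lowest dysplasia array stood well above the highest of the other 10, while the transgenic and non-transgenic arrays overlapped. Dysplasia exceeded transgenic tissue 2.31-fold, a log2 difference of 1.18 (standard error 0.10, 95% interval 0.96 to 1.41, adjusted p = 1.21e-05, limma) on the scale of log2(signal + 50). Against non-transgenic tissue the ratio was 2.89 and the log2 difference 1.50 (standard error 0.10, adjusted p = 1.18e-06, limma). The other probe set of Erbb3, 1452482_at, was dim, with 0.975 to 21.3 on all arrays.

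Erbb2 showed a difference of like size. Its probe set 1424919_at gave signals of 1126, 972, 1384, 1151 and 1351 in dysplasia. In transgenic tissue the signals were 510, 501, 517, 556 and 496, a narrow range, and in non-transgenic tissue 384, 343, 486, 457 and 421. The 3 groups did not overlap at this probe set, and the order was dysplasia, transgenic, non-transgenic. The ratio of dysplasia to transgenic tissue was 2.32, with a log2 difference of 1.13 (standard error 0.11, 95% interval 0.90 to 1.36, adjusted p = 1.78e-05, limma). The ratio to non-transgenic tissue was 2.86 and the log2 difference 1.41 (standard error 0.12, adjusted p = 4.62e-06, limma).

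These rises were close to that of the epithelial marker sum, which was 2.33-fold against transgenic and 2.77-fold against non-transgenic tissue. Expressed as a percent of that sum on the same array, Erbb2 was 1.39% ± 0.182 (SD, n = 5) in dysplasia against 1.39% ± 0.0811 in transgenic tissue, with ranges of 1.17% to 1.60% and 1.33% to 1.53% (exact permutation test, 2-sided, p = 0.897). Erbb3 was 4.75% ± 0.613 in dysplasia and 4.76% ± 0.545 in transgenic tissue (exact permutation test, 2-sided, p = 0.952). Against non-transgenic tissue these shares gave p = 0.651 for Erbb2 and p = 0.563 for Erbb3 by the same exact test. Within the epithelial sum the tested markers rose unevenly against transgenic tissue, from 1.23-fold for Cdh1 to 8.43-fold for Cldn4. The sum of alveolar type 2 markers, which are epithelial too, had means of 140217 in dysplasia and 130334 in transgenic tissue. It spread widely over the arrays, from 117784 to 196772 in dysplasia and from 108942 to 180485 in transgenic tissue. The match therefore holds for the markers chosen. A p above the threshold does not show the shares to be equal, and bright markers weigh most in the epithelial sum. Such shares belong to a family of 36 exact tests, of 6 genes against 3 marker sums in 2 comparisons, that was added after the values had been seen. In 20 of them the gene and the sum moved in opposite directions, so that the shares had to differ, and p-values were adjusted over the other 16. The smallest p that 5 against 5 arrays allow is 0.00794. Adjusted over all 36, Lrig1 against the epithelial sum (adjusted p = 0.0330) and Lrig3 against the endothelial sum (adjusted p = 0.0423) passed the exact permutation test in the comparison with transgenic tissue, and over the 16 they did not. In the comparison with non-transgenic tissue both passed either way (exact permutation test, adjusted p = 0.0119 over the 36 and 0.0317 over the 16). There Errfi1 against the epithelial sum passed over the 36 (exact permutation test, adjusted p = 0.0330) and not over the 16 (adjusted p = 0.0635).

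Egfr, by contrast, was lower in dysplasia at each of its 3 tested probe sets. The brightest, 1435888_at, had signals of 183, 169, 181, 240 and 209 in dysplasia. The transgenic arrays gave 550, 436, 574, 506 and 699, and the non-transgenic arrays 613, 657, 551, 643 and 776. Every dysplasia array was far below every array of the other groups, and the latter overlapped. The signal in transgenic tissue was 2.82-fold that in dysplasia, with a log2 difference of -1.28 (standard error 0.13, 95% interval -1.56 to -1.01, adjusted p = 2.51e-05, limma). Against non-transgenic tissue the log2 difference was -1.50 (standard error 0.11, adjusted p = 1.65e-06, limma), a 3.30-fold gap.

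The probe set 1424932_at of Egfr gave 67.8, 80.5, 104, 111 and 98.3 in dysplasia, 210, 215, 341, 247 and 291 in unaltered transgenic and 357, 286, 356, 323 and 271 in non-transgenic tissue. With a dysplasia mean of 92.4 it passed the signal limit through the other groups, as did Lrig3, so that in both the low side lies near the dimmest signals tested. Its log2 difference was -1.12 against transgenic (adjusted p = 9.78e-05, limma) and -1.38 against non-transgenic tissue (adjusted p = 3.44e-06, limma). The remaining one, 1460420_a_at, gave 101, 173, 190, 176 and 139 in dysplasia, 214, 247, 302, 255 and 236 in unaltered transgenic and 331, 263, 428, 401 and 276 in non-transgenic tissue. Its fall was smaller, -0.56 (adjusted p = 0.0080, limma) and -0.92 (adjusted p = 7.33e-04, limma) on the log2 scale. The difference between its fall and that of 1435888_at was 0.72 against transgenic tissue (exact permutation test, 2-sided, p = 0.00794, adjusted p = 0.0198 over 10 such tests) and 0.58 against non-transgenic tissue (exact permutation test, p = 0.0556, adjusted p = 0.0926). It also fell less than 1424932_at in both comparisons, by 0.56 and 0.45 (exact permutation test, adjusted p = 0.0198 each), whereas 1435888_at and 1424932_at gave adjusted p = 0.283 and 0.484 by this exact test. Which transcripts of Egfr the 3 probe sets report was not analysed here.

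The 4 dim probe sets of Egfr had signals between 0.610 and 111. Among them 1454313_at gave 2.57 to 9.10 in dysplasia and 9.24 to 48.4 in transgenic tissue, and when no signal limit was set the log2 difference between them was -0.55 (adjusted p = 0.0162, limma). Against non-transgenic tissue it was -0.25 and did not pass (adjusted p = 0.200, limma). Against transgenic tissue the other 3 gave -0.21, -0.02 and 0.01, none of which passed (adjusted p from 0.510 to 0.976, limma). Erbb4 had no signal above 26.6 on any array, with 3.39 to 20.9 in dysplasia, 5.08 to 26.6 in unaltered transgenic and 9.60 to 17.6 in non-transgenic tissue. At such signals a level of Erbb4 could not be measured, and its log2 difference against transgenic tissue without a signal limit was -0.10 (adjusted p = 0.655, limma).

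**Figure D2:**
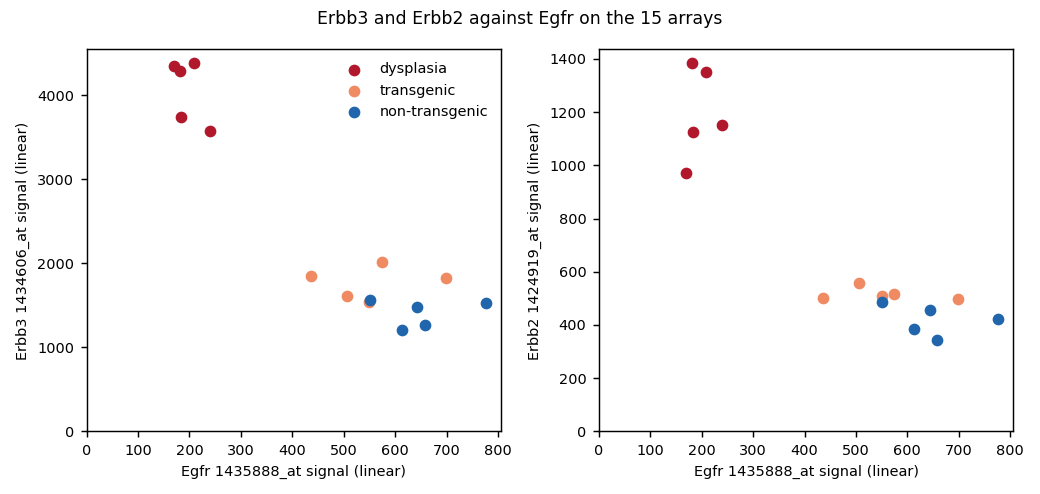
Signal of Erbb3 (left) and Erbb2 (right) against that of Egfr 1435888_at, all on linear axes in arbitrary units, with 1 point per array. The 5 dysplasia arrays lie at Egfr signals of 169 to 240 and Erbb3 signals of 3572 to 4386, apart from the other 10 arrays in both plots.

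The fall of Egfr went along with that of the endothelial markers, whose sum in dysplasia was 0.305 times that in transgenic tissue, and with a smaller fall of the fibroblast and mesenchymal sum to 0.633 times. Relative to the endothelial sum on the same array, Egfr 1435888_at was 0.859% ± 0.0590 (SD, n = 5) in dysplasia against 0.738% ± 0.127 in transgenic tissue (exact permutation test, 2-sided, p = 0.0873, adjusted p = 0.155). Relative to the mesenchymal sum it was 0.470% ± 0.0284 and 0.841% ± 0.145 (exact permutation test, adjusted p = 0.0317). Alveolar type 1 markers fell too against transgenic tissue, 7 of 10 being lower and 1 higher, with a median log2 difference of -0.80. So did 4 of 5 smooth muscle and 5 of 7 lymphocyte markers. Egfr was not expressed relative to the sums of these further lists. The part of any of these cell types in the Egfr signal was not tested.

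**Figure D3:**
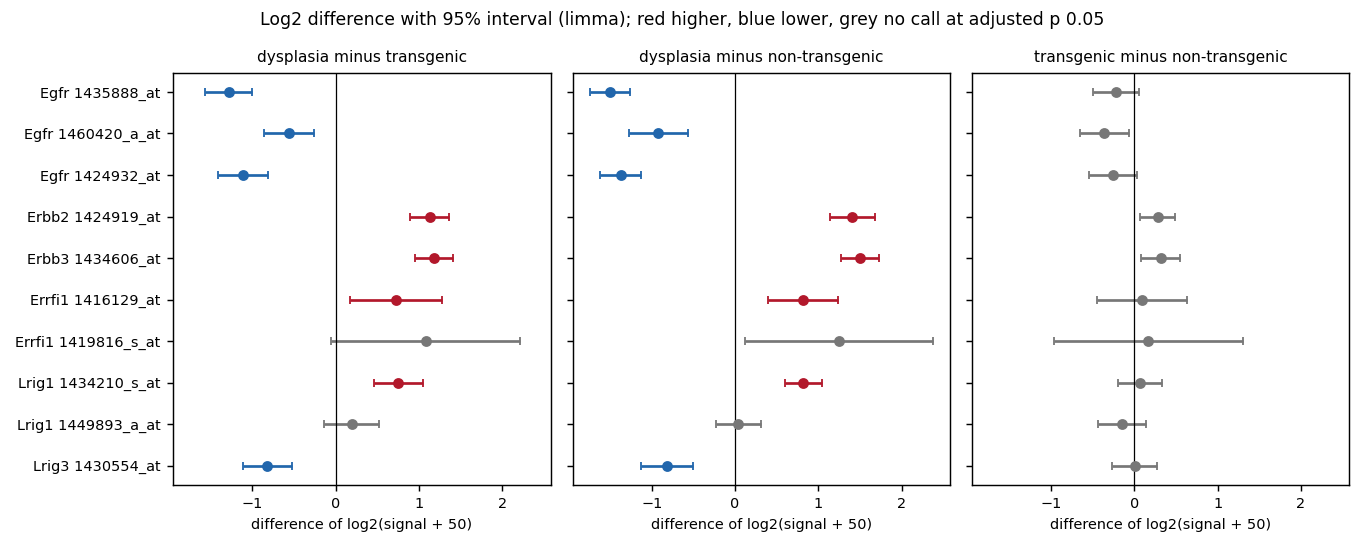
Log2 difference of each tested probe set with its 95% interval from limma, on the scale of log2(signal + 50), for the 3 comparisons of 5 against 5 arrays. Red marks a higher and blue a lower call at an adjusted p under 0.05, and in the right panel, transgenic against non-transgenic tissue, no probe set was called.

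Among the inhibitors, Errfi1 was the most variable. Its probe set 1416129_at gave signals of 19886, 10249, 13810, 12379 and 13662 in dysplasia 1 to 5. Transgenic 1 to 5 gave 13858, 5334, 6553, 9760 and 8022, and the non-transgenic arrays 7487, 9791, 9145, 5513 and 7533. Dysplasia and transgenic arrays overlapped, since transgenic 1 was brighter than 4 of the dysplasia arrays, whereas no non-transgenic array reached the dysplasia range. The signal was 1.61-fold higher in dysplasia than in transgenic tissue, a log2 difference of 0.73 (standard error 0.25, 95% interval 0.18 to 1.28, adjusted p = 0.0440, limma). This call was lost in 8 of the 10 fits that left out 1 array, with an adjusted p of up to 0.101, and without dysplasia 4 and transgenic 2 the adjusted p was 0.119. Against non-transgenic tissue the ratio was 1.77 and the log2 difference 0.82 (standard error 0.19, adjusted p = 0.0051, limma). Relative to the epithelial marker sum, Errfi1 was 16.1% ± 2.87 (SD, n = 5) in dysplasia against 23.4% ± 8.72 in transgenic tissue (exact permutation test, p = 0.111, adjusted p = 0.178). In non-transgenic tissue this share was 25.8% ± 7.36 (exact permutation test, p = 0.0238, adjusted p = 0.0635). Neither difference passed over the 16 tests.

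The other probe set of Errfi1, 1419816_s_at, gave 4929, 2104, 1463, 1144 and 883 in dysplasia, 2298, 925, 594, 702 and 335 in unaltered transgenic and 833, 1856, 810, 408 and 310 in non-transgenic tissue. The groups overlapped widely. Its log2 differences of 1.08 (standard error 0.52, adjusted p = 0.137, limma) and 1.25 (standard error 0.51, adjusted p = 0.0699, limma) did not pass the test. Dysplasia and transgenic arrays carry the numbers 1 to 5 and deviated together from their group means by number, so each number was also compared within itself. The labels do not say that a number marks a mouse. Transgenic and non-transgenic arrays of the same number, from different mice, deviated together too (correlations of 0.135 to 0.793). Among the dysplasia and transgenic pairs number 4 correlated least, at 0.219, with Xist signals of 9674 and 85.0. Both probe sets of Errfi1 were higher in dysplasia in 5 of 5 such pairs, by 0.34 to 1.07 for 1416129_at and by 0.67 to 1.28 for 1419816_s_at on the log2 scale. With the number as a block, the adjusted p was 8.86e-04 for 1416129_at and 4.84e-05 for 1419816_s_at (limma), and 9 of the 10 probe sets were called against 8 without it. The share of all probe sets called with the block is not reported here, so that count is no result about the members.

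Lrig1 was higher in dysplasia at 1 of 2 tested probe sets. At 1434210_s_at the signals were 650, 614, 639, 501 and 708 in dysplasia, 370, 472, 301, 322 and 297 in unaltered transgenic and 339, 312, 358, 345 and 293 in non-transgenic tissue. The dysplasia arrays did not overlap with the others, and dysplasia 4 and transgenic 2 came closest to each other. The log2 difference was 0.75 against transgenic (standard error 0.13, adjusted p = 0.0012, limma), a ratio of 1.77, and 0.82 against non-transgenic tissue (standard error 0.10, adjusted p = 5.76e-05, limma), a ratio of 1.89. Relative to the epithelial marker sum, Lrig1 was 0.723% ± 0.0816 (SD, n = 5) in dysplasia against 0.948% ± 0.184 in transgenic tissue (exact permutation test, p = 0.0238, adjusted p = 0.0635), which did not pass. The share in dysplasia was 0.680 times that in non-transgenic tissue, and this difference passed (exact permutation test, p = 0.00794, adjusted p = 0.0317).

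The probe set 1449893_a_at of Lrig1 gave 255, 412, 304, 279 and 316 in dysplasia, 180, 293, 310, 303 and 261 in unaltered transgenic and 310, 280, 330, 334 and 252 in non-transgenic tissue. All 3 groups overlapped, with log2 differences of 0.19 (95% interval -0.14 to 0.52, adjusted p = 0.380, limma) and 0.04 (95% interval -0.23 to 0.31, adjusted p = 0.823, limma). The 2 probe sets differed from each other by 0.78 against non-transgenic tissue (exact permutation test, 2-sided, adjusted p = 0.0198) and by 0.56 against transgenic tissue (exact permutation test, 2-sided, p = 0.0397, adjusted p = 0.0794). The remaining probe set of Lrig1, 1419928_at, was below the signal limit and ran from 37.4 to 152. With no signal limit its log2 difference was -0.30 against transgenic tissue (adjusted p = 0.142, limma). Against non-transgenic tissue it was -0.12 (adjusted p = 0.707, limma), and neither passed.

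Lrig3, a relative of Lrig1 in the same family of membrane proteins with leucine-rich repeats and immunoglobulin domains, was lower in dysplasia. The signals of 1430554_at were 117, 116, 61.1, 107 and 84.2 in dysplasia, 242, 228, 204, 197 and 169 in unaltered transgenic and 258, 240, 193, 193 and 160 in non-transgenic tissue. Dysplasia lay below both other groups on every array, and the means of the latter, 208 and 209, were alike. The log2 difference was -0.82 against transgenic (standard error 0.13, adjusted p = 6.23e-04, limma) and -0.82 against non-transgenic tissue (standard error 0.14, adjusted p = 7.79e-04, limma). The dimmer probe set 1430555_s_at gave 56.6 to 98.5 in dysplasia against 62.5 to 144 and 96.0 to 128. Without a signal limit its log2 difference was -0.35 against non-transgenic tissue (adjusted p = 0.0217, limma), while -0.37 against transgenic tissue did not pass the test (adjusted p = 0.130, limma). As a percent of the mesenchymal sum, Lrig3 was 0.235% ± 0.0654 (SD, n = 5) in dysplasia against 0.318% ± 0.0531 in transgenic tissue (exact permutation test, 2-sided, p = 0.0794, adjusted p = 0.155). As a percent of the endothelial sum it was 0.429% ± 0.123 and 0.280% ± 0.0557 (exact permutation test, p = 0.0317, adjusted p = 0.0726), and neither share passed the test. In non-transgenic tissue the endothelial share was 0.244% ± 0.0330, and its difference from dysplasia passed (exact permutation test, p = 0.00794, adjusted p = 0.0317). The mesenchymal share did not pass in that comparison (exact permutation test, adjusted p = 0.242). What part these cells have in the signal was not tested.

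**Figure D4:**
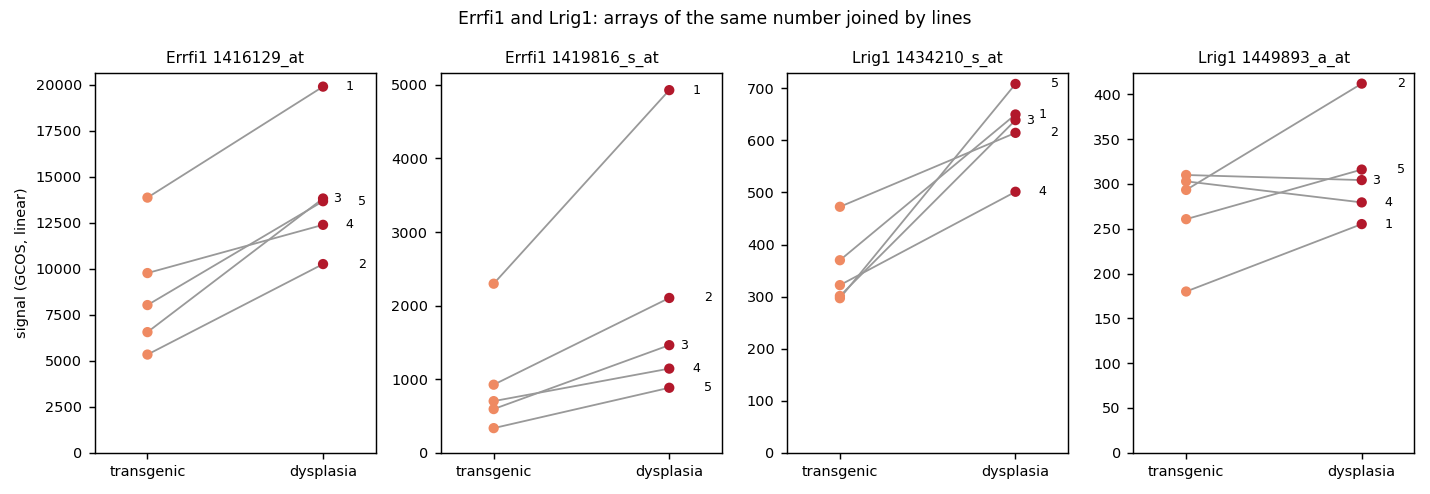
Signal of the tested probe sets of Errfi1 and Lrig1 (linear scale from 0, arbitrary units) in transgenic and dysplastic tissue, with arrays of the same number joined by a line and the number at its right end. All 5 lines rise for both probe sets of Errfi1 and for Lrig1 1434210_s_at, and for Lrig1 1449893_a_at 3 rise and 2 fall.

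The comparison of dysplasia with non-transgenic tissue shares its dysplasia arrays with the first. It called 8 of the 10 probe sets, 4 higher and 4 lower, with a median log2 difference of 0.43 against -0.03 over all probe sets. Of all probe sets tested 44.0% were called, 20.7% higher and 23.3% lower. The stricter thresholds were passed by 6 of the 10 and 12.4% of all, and the groups did not overlap at 8 of the 10 and at 33.3% of all. Without dysplasia 4 the count was 8 again.

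Between transgenic unaltered and non-transgenic tissue 0 of the 10 probe sets were called at an adjusted p under 0.05 by limma, while 3 had an unadjusted p below 0.05. Of all probe sets 1.26% were called, 1.17% higher and 0.0831% lower, and 0.0416% passed the stricter thresholds, against 0 of the 10. Those 3 were Erbb3 with a log2 difference of 0.32 (standard error 0.11, adjusted p = 0.226, limma), Erbb2 with 0.28 (standard error 0.10, adjusted p = 0.234, limma) and Egfr 1460420_a_at with -0.36 (standard error 0.13, adjusted p = 0.290, limma). Erbb2 was the member at which these groups did not overlap, as the dimmest transgenic array gave 496 and the brightest non-transgenic array 486, and 4.30% of all probe sets did not overlap. The epithelial marker sum was 1.19-fold higher in the transgenic tissue. The inhibitors gave log2 differences of 0.09 and 0.17 for Errfi1, 0.07 and -0.15 for Lrig1 and 0.00 for Lrig3. The intervals were wide for Errfi1, from -0.45 to 0.63 at 1416129_at.

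Of 58 further genes of the pathway 51 could be tested, each at its brightest probe set. Against transgenic tissue 12 were higher and 12 lower in dysplasia, with a median log2 difference of -0.10, and 27 did not pass the test. Over all probe sets tested, 15.3% were called higher and 17.9% lower. Against non-transgenic tissue 17 were higher and 18 lower, where 20.7% and 23.3% of all probe sets were called. Between transgenic and non-transgenic tissue 2 were higher and 0 lower, where 1.17% and 0.0831% of all were called.

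Of the 11 ligands 5 could be tested, and 4 of them were higher in dysplasia than in transgenic tissue, against 15.3% of all probe sets. Ereg, or epiregulin, a ligand of Egfr and Erbb4, rose from a mean signal of 443 to 5464, a log2 difference of 3.51 (adjusted p = 7.95e-07, limma). In non-transgenic tissue its mean was 11.3, below the signals tested, and it was called higher in transgenic than in non-transgenic tissue (adjusted p = 3.71e-05, limma), by a size that depends on the offset of 50. Btc, or betacellulin, rose by 1.39 and Tgfa by 0.99, and Hbegf, a heparin-binding ligand, by 1.19 (adjusted p = 0.0393, limma). Nrg2, a neuregulin that binds Erbb3 and Erbb4, was lower by 0.59, from a mean of 115 to 59.9, and passed the signal limit through the groups without dysplasia. The ligands Egf, Epgn, Nrg1, Nrg3 and Nrg4 were too dim for a test, and Areg was not analysed here. The 5 genes of ligand shedding, Adam10, Adam17, Rhbdf1, Rhbdf2 and Timp3, gave no call against transgenic tissue. Against non-transgenic tissue Rhbdf1 was higher by 0.33 and the protease inhibitor Timp3 lower by 0.83.

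The 20 adaptors and effectors gave 4 higher and 7 lower calls against transgenic tissue, where 15.3% and 17.9% of all probe sets were called. Grb7, an adaptor that binds Erbb2 and lies close to it in the genome, rose by 1.27 (2.50-fold, adjusted p = 2.82e-05, limma). Eps8, a substrate of Egfr that acts on actin, fell by 1.14 on the log2 scale (adjusted p = 2.46e-05, limma). The transcription factor Stat5b fell by 0.78, as did the docking protein Gab2. Among the 21 tested genes of receptor turnover and other inhibition, 4 were higher and 4 lower, beside the same shares of all probe sets. Cblc, an epithelial ubiquitin ligase of the Cbl family, rose by 1.17 and was also higher in transgenic than in non-transgenic tissue by 0.59 (adjusted p = 0.0103, limma). Its relatives Cbl and Cblb fell by 0.60 and 0.55, and Sh3kbp1, which links Cbl to endocytosis of Egfr, fell by 1.01 on the log2 scale. Lrig2, the remaining Lrig gene, fell by 0.41 on that scale. The other higher genes of this list, Stub1, Ptpn2 and Cdc37, rose by 0.27, 0.47 and 0.44.

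**Figure D5:**
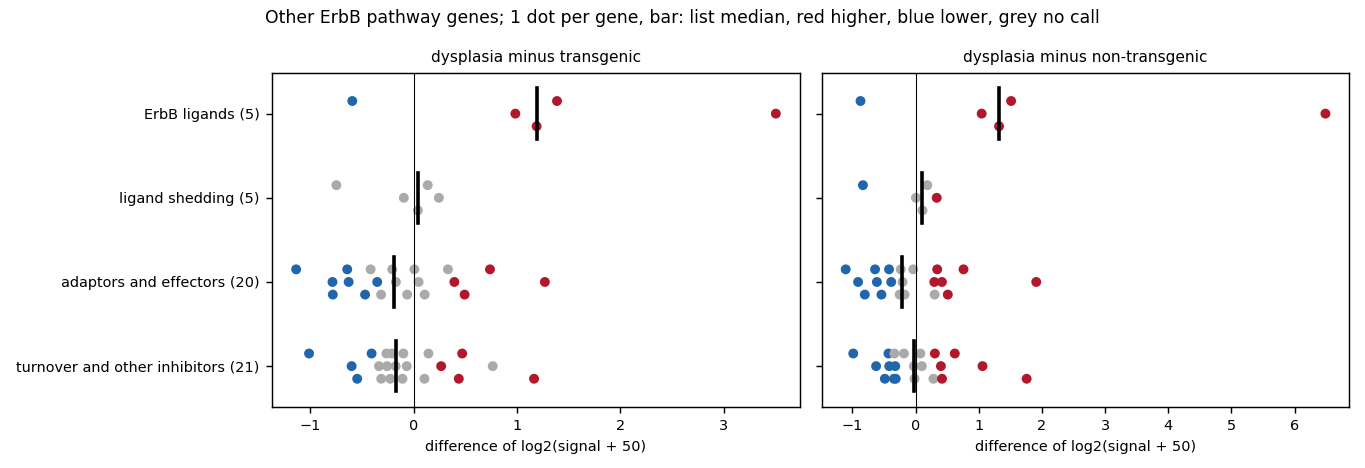
Log2 difference of log2(signal + 50) for the tested genes of the 4 pathway lists, 1 dot per gene at its brightest probe set, with the median of each list as a bar and the number of genes in brackets. Ereg lies farthest to the right, at 3.51 against transgenic tissue, and its place against non-transgenic tissue, where its mean was 11.3, depends on the offset of 50.

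Over the 15 arrays, the genes with a pattern most like a member's were found by Pearson correlation of log2(signal + 50), as a description in which the difference between dysplasia and the other groups dominates. Nearest to Erbb3 were Inava (r = 0.991), Plxnb1 (0.989) and Meg3 (0.989), and nearest to Erbb2 were Klc3 (0.988), Mapk11 (0.987) and Gfer (0.986). Egfr was matched by Prkce (0.989), Spock2 (0.988) and Agpat4 (0.988), all lower in dysplasia, and Lrig3 by Tbx3 (0.980), Cd93 (0.974) and Gap43 (0.974). For Lrig1 the genes were Junb (0.970), Junos (0.967) and Ros1 (0.958), of which Junb is an immediate early transcription factor. Errfi1 had weaker matches, AA986860 (0.942), Maff (0.939) and the heat shock gene Hspa8 (0.928).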

How the data were processed

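The authors extracted total RNA from microdissected tissue, amplified and labelled it, and hybridised each sample to its own array. The deposited intensity values are signals of Affymetrix GCOS (version not given in the sources used here), 1 per probe set, scaled by the authors to a target of 500 per array. The mean after trimming 2% at each end was checked to be 500.0 on all 15 arrays. Their later normalization and SAM test were not used here. Precision is limited by how many arrays there are.

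Of 45101 probe sets 64 controls were left out. The array annotation gave 34945 of the rest 1 symbol, 932 several and 9160 none, and 34741 of the single symbols matched the current gene table. The 21658 probe sets with a mean signal above 100 were tested with limma 3.58.1 in R 4.3.3 on log2(signal + 50), 5 against 5 arrays, unpaired as in the methods, with Benjamini-Hochberg adjustment and a threshold of 0.05. A difference on this scale understates changes of dim probe sets. Ratios are of mean signals. The fit was tested on simulated data. Differences between probe sets and marker shares were tested by exact permutation over arrays.

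All probe sets of the 7 genes were read, and the tested ones are named. Of each pathway list, the brightest probe set per gene was used, and up to 4 called genes with the smallest p against transgenic tissue are named. Hbegf, Cblb, Stub1, Ptpn2 and Cdc37 are named besides, and of the shedding list the genes called against non-transgenic tissue. Of each marker list up to 2 called genes are named, with Cdh1 and Cldn4 besides as the ends of a range. The members and lists were chosen with earlier results of these data known. Some genes are not reported here.

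The labels do not say that an array number marks a mouse. Deviations from group means were correlated between arrays that share a number. The correlations were 0.219 to 0.773 between dysplasia and transgenic tissue, 0.135 to 0.793 between transgenic and non-transgenic tissue, where the mice differ, and -0.00366 to 0.727 between dysplasia and non-transgenic tissue. Alternatives changed the offset, normalization, signal limit, covariates, variance model and arrays used. The pair of arrays with unclear labels was left out after the data had been seen.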

Additional observations from a re-analysis of the deposited data

How the results depend on the processing

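Under all alternatives tried, the counts of called probe sets stayed close to the main ones, at 7 to 9 in each comparison with dysplasia and 0 between transgenic and non-transgenic tissue, also when each array was left out in turn. The shares of all probe sets called under these alternatives are not reported here. Among the 10 probe sets above the signal limit, the calls that changed were all of Errfi1. With no signal limit, the dim Egfr 1454313_at against transgenic and the dim Lrig3 1430555_s_at against non-transgenic tissue were called as well. For 1416129_at the difference between dysplasia and transgenic tissue was no longer called with no offset (adjusted p = 0.0513, limma) or with no signal limit (adjusted p = 0.0734, limma), nor when any 1 of dysplasia 1, 3, 4 and 5 or transgenic 2, 3, 4 and 5 was left out, with log2 differences from 0.57 to 0.91 over the 10 arrays left out. For 1419816_s_at a call was gained without transgenic 1 (adjusted p = 0.0327, limma). Against non-transgenic tissue it was gained with the actin ratio as a covariate (adjusted p = 0.0325), without dysplasia 5 (adjusted p = 0.0449), without non-transgenic 2 (adjusted p = 0.0205) and with the array number as a block (adjusted p = 0.0073, limma). The causes were not tested. With the block, 9 probe sets were called in each comparison with dysplasia and 0 between transgenic and non-transgenic tissue, and no call of another member changed. With a signal limit of 200 Lrig3 was not tested. No direction of a called member turned. Signals near or below 100 limit what can be said of Erbb4, of Lrig3 and Egfr 1424932_at in dysplasia, and of the 9 probe sets not tested. Sex was uneven between the groups, and with Xist as a covariate the member calls were the same.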
